A study of Homo sapiens with 18 samples.

Results

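L1MC, L1MD and L1ME are 3 old families of the LINE-1 (L1) retrotransposon. They were described here by repeat name and by single copy, as counts from total RNA of IMR90 human fibroblasts. Members were all copies whose repeat name begins with L1MC, L1MD or L1ME. They numbered 145470 of 2404193 copies in the table of the 5-fluorouracil (5-FU) experiment and 94645 of 1996647 copies in the table of the Nutlin experiment. Of the 145470 copies, 43997 were L1MC, 12241 L1MD and 89232 L1ME. The Nutlin table held 29290, 8231 and 57124 of them. The members bear 44 names (11 L1MC, 6 L1MD and 27 L1ME) of the 1113 and 1108 names in the tables.

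LINE-1 is a retrotransposon that copies itself through RNA. The letters L1M stand for the names given to its older mammalian lineages. Their copies in the human genome are mutated, truncated pieces that no longer move, and many lie inside genes, above all in introns. A read over such a piece can therefore come from a longer transcript that began elsewhere. The tables list repeats and no genes, so which transcripts gave the reads was not tested.

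IMR90 is a line of lung fibroblasts, wildtype per the labels, and the series has 18 samples in 9 groups of 2. Cells were given Nutlin, which blocks the binding of MDM2 to p53, at 5 µM for 6 h, or 5-FU, an antimetabolite that disturbs RNA and DNA synthesis, at 375 µM. The 5-FU cells were taken after 6, 12 or 24 h. DMSO at the same volume and time served as the control of each, and the untreated cells had fresh medium 12 h before extraction. Both drugs are known to activate p53, and the series asks how repeat expression across the genome goes with that tumour suppressor. The labels do not say that the 2 samples of a group came from separate cultures, so the p-values measure the spread between these samples, which may be technical. With no gene listed, the fibroblast label could not be checked against marker genes. In bulk RNA, fewer cells that use a copy and less RNA of it per cell cannot be told apart.

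Libraries of the 5-FU table held 2412334 to 6290320 counts, and those of the Nutlin experiment had 9109885 to 11880265. Outside structural RNA (rRNA, tRNA and small RNA), the totals were 1618055 to 4164168 and 1787724 to 2474410. The untreated columns given with Nutlin did not differ at any copy (0 copies differ) and entered as 1 sample. The tables were made separately, so levels were compared only within a table. Levels are in CPM, the usual per-depth scale, here of the library after scaling. A copy or name is called higher or lower, or said to have risen or fallen, at a Benjamini-Hochberg adjusted p under 0.05 in edgeR's quasi-likelihood test on the whole table.

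Most of these old copies had at least 1 count in some library. Of the members 14000 (9.62%) were at 0 in every library of the 5-FU table, against 41.6% of all its copies, and 13175 (13.9%) in the Nutlin table, against 56.0%. They were short: the median member had 279 bases with the 5-FU table and 309 with that of Nutlin. Few had the depth for a test. The filter on low counts left 6390 members of 63602 tested copies in the 5-FU experiment and 1697 of 21328 in the Nutlin experiment, so the counts of calls below speak only for these. All 44 names passed the filter.

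The most counted L1ME names of the 5-FU table were L1ME4a, between 4673 and 6485 CPM over its libraries, L1ME1 between 2832 and 4199, and L1ME4b between 2752 and 3700. Among L1MC they were L1MC4, between 2916 and 3999 CPM, L1MC5a between 2653 and 3174, and L1MC5 between 1696 and 2187. Among L1MD they were L1MD2, between 2007 and 2447 CPM, L1MDa between 821 and 1250, and L1MD between 682 and 903. These sums depend on how much annotated sequence bears a name. Per megabase of annotated length L1MDb had 2234 to 6208 CPM over the libraries, L1ME4a 1728 to 2398, L1ME4c 1578 to 2030, L1ME4b 1227 to 1649 and L1MC5a 1232 to 1475. At the low end L1MC1 had 288 to 396 and L1MCa 279 to 474 CPM per megabase. The ranges of names next to each other in this order overlapped.

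A few copies dominated some names. The most counted copy held a median of 8.48% of its name's counts for 5-FU and 11.1% for Nutlin. The share passed 25% in 9 and 8 of the 44 names. For L1MDb it was 74.5% and 74.9%, both times from a 181-base copy at chr17:57697284-57697464 (hg19, as are all positions). The high level of L1MDb per megabase is thus mostly that of 1 copy. For L1MEa the shares were 68.5% and 82.7%, from a copy at chr17:33678938-33679292. The highest single member in both tables was an L1MD2 copy of 1006 bases at chr14:75599933-75600938, with 225 to 262 CPM over the Nutlin table and 480 to 856 CPM over the 5-FU table.

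As a share of all counts outside structural RNA, the members lay between 7.10% and 9.67%. Untreated cells had 8.12% and 7.85%. In the 5-FU table DMSO libraries had 9.03% and 8.91% (6 h), 9.67% and 9.33% (12 h) and 8.17% and 8.74% (24 h). Those of 5-FU had 8.27% and 8.11% (6 h), 7.23% and 7.10% (12 h) and 7.36% and 8.78% (24 h). Both 5-FU libraries lay below both DMSO libraries at 6 h and 12 h, by the widest margin at 12 h, and the groups overlapped at 24 h. In the Nutlin table the shares were 7.51% and 7.41% with Nutlin, 7.69% and 7.60% with DMSO, and 8.09% in untreated cells. Both Nutlin libraries were lower than both DMSO libraries, by a narrow margin.

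**Figure D1:**
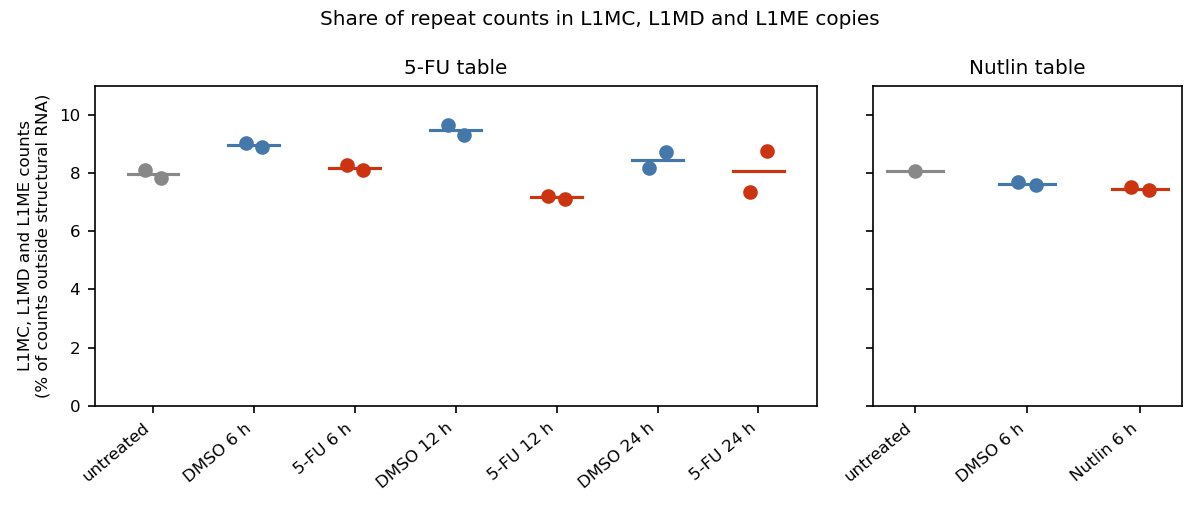
Share of the counts outside structural RNA (percent, y axis) that fell on L1MC, L1MD and L1ME copies, with 1 point per library and the groups along the x axis. The 2 libraries of 5-FU at 12 h, at 7.23% and 7.10%, are the lowest of the 5-FU table, and the 2 of DMSO at 12 h, at 9.67% and 9.33%, are the highest.

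Under Nutlin for 6 h the median member stood at the level of DMSO, while single copies changed in both directions. Of the 1697 members tested, 68 rose and 69 fell, or 8.07%. Over all copies tested 9.57% were called (5.36% higher and 4.21% lower). The members' median log2 fold change was 0.00, beside 0.01 over all copies. By family, 20 L1MC copies rose and 17 fell of 482, 3 L1MD copies rose and 11 fell of 170, and 45 L1ME copies rose and 41 fell of 1045. With scaling to library size alone, 49 members rose and 96 fell, where 833 of all copies rose and 1271 fell. Scaling by library size lowered the median of all copies from 0.01 to -0.14.

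The risen copies with the smallest p came from 1 stretch of chromosome 17, chr17:33595843-33600763, where all 6 members tested rose. An L1ME4b copy of 1280 bases, chr17:33599065-33600344, had 168 and 163 CPM with Nutlin, 22.1 and 18.1 CPM with DMSO and 23.0 CPM in untreated cells. Its log2 fold change was 3.04 (SE 0.12, edgeR adjusted p = 1.15e-08, n = 2 per group). The untreated library was at the level of DMSO. Copies named by smallest p were picked among those whose groups do not overlap, so their separation is no support.

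Next to it, an L1MEi copy at chr17:33597951-33598187 had 40.4 and 38.5 CPM with Nutlin and 5.40 and 4.48 CPM with DMSO (log2 fold change 3.0, SE 0.16, edgeR adjusted p = 2.93e-07). An L1MEc copy at chr17:33595843-33596112 had 56.2 and 54.8 CPM against 13.9 and 14.6 (1.96, SE 0.12, edgeR adjusted p = 1.21e-06). A second L1ME4b piece, chr17:33598326-33598431, had 16 and 18 CPM against 2.48 and 1.67 (3.03, SE 0.25, edgeR adjusted p = 1.53e-05). Members were not alone in this stretch: all 5 other repeats tested there rose, with a median log2 fold change of 2.20. Under 5-FU the 1280-base L1ME4b copy was not called at any time: it had 134 and 129 CPM against 104 and 86.7 with DMSO at 6 h (log2 fold change 0.46, edgeR adjusted p = 0.63). The fitted values were 0.08 at 12 h and -0.15 at 24 h.

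The other Nutlin stretches among the 3 with the most called members lay on chromosomes 11 and 12. At chr11:65196353-65204531 all 6 members tested rose, by log2 1.15 to 1.70, with 4 of the 6 other repeats tested. At chr12:4465569-4469265 all 4 rose, by log2 2.20 to 2.46, with 2 of the 3 other repeats. In total 47 of the 137 called members fell into 16 such stretches, in which each called member lies within 50 kb of the next. This share was not computed for other copies.

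The fallen copies with the smallest p under Nutlin came from 4 chromosomes. An L1ME4a copy at chr19:55876154-55876357 had 29.0 and 26.4 CPM with Nutlin and 64.1 and 61.7 with DMSO (log2 fold change -1.18, SE 0.11, edgeR adjusted p = 4.23e-05). The untreated library, at 33.6 CPM, lay nearer to Nutlin than to DMSO. An L1MDb copy at chr1:197115466-197115687 had 3.79 and 3.74 CPM against 13.6 and 14.8 (-1.91, SE 0.20, edgeR adjusted p = 0.0001). L1ME1 at chr8:25368352-25369710 had 6.79 and 7.49 CPM against 18.9 and 20.2 (-1.46, SE 0.16, edgeR adjusted p = 0.000178), and L1ME4a at chr9:21862189-21862614 had 19.8 and 25.6 CPM against 47.1 and 49.5 (-1.10, SE 0.13, edgeR adjusted p = 0.000363).

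Summed by name, 3 names rose and 1 fell under Nutlin, of 44, while 12.2% of all 1028 names tested were called (7.78% higher, 4.38% lower). L1MEi had 112 and 126 CPM against 92.8 and 74.5 with DMSO (log2 fold change 0.51, SE 0.10, edgeR adjusted p = 0.000386). L1ME4b had 1140 and 1145 CPM against 998 and 934 (0.24, SE 0.07, edgeR adjusted p = 0.013). In both the most counted copy is the chromosome 17 copy described above, with 18.2% and 7.47% of the name's counts. Without it the log2 fold change was 0.01 for L1MEi and 0.05 for L1ME4b, and neither name was called (edgeR adjusted p = 0.983 and 0.851).

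L1MCa also rose, with 169 and 160 CPM against 147 and 132 (0.24, SE 0.08, edgeR adjusted p = 0.0425). L1MD fell, with 182 and 184 CPM against 237 and 219 (-0.32, SE 0.07, edgeR adjusted p = 0.0039). Their fold changes were nearly the same without the most counted copy, at 0.24 and -0.28, but the calls were lost (edgeR adjusted p = 0.342 and 0.258). With every name stripped of its most counted copy, 0 member names were called by edgeR, where 1.02% of all names were (0.715% higher, 0.306% lower). The calls under Nutlin with a replicate block were 1 member name higher and 1 lower, where 52 and 26 of all names were. With library-size scaling 1 member name rose and 17 fell, where 43 of all 1028 names rose and 188 fell.

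After 6 h of 5-FU hardly any copy passed the test. Of 6390 members 3 rose and 1 fell, a share of 0.0626%, and over all copies 0.101% were called (0.0896% higher, 0.011% lower). At an unadjusted p under 0.05 there were 422 members and 4690 of all 63602 copies. In simulated data the copy test at 6 h recovered only 23% or 13% of changes of log2 2, by how dispersion was set. The few calls therefore do not show that few copies changed. The fallen copy is an L1MD3 piece of 1838 bases, chr9:21865801-21867638, with 10.5 and 10.8 CPM with 5-FU and 33.9 and 37.5 CPM with DMSO (log2 fold change -1.74, SE 0.23, edgeR adjusted p = 0.000775). It was called in all 13 alternatives.

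This L1MD3 copy stayed low at every later time. At 12 h it had 6.47 and 5.23 CPM against 61.2 and 61.2 with DMSO (-3.38, SE 0.26, edgeR adjusted p = 6.53e-08). At 24 h it had 5.79 and 4.80 CPM against 26.4 and 27.7 (-2.36, SE 0.25, edgeR adjusted p = 3.94e-06). All 6 5-FU libraries lay below all 6 DMSO libraries and below the untreated ones, at 43.8 and 40.6 CPM. Under Nutlin it fell too, with 5.55 and 6.28 CPM against 14.4 and 18.1 (-1.46, edgeR adjusted p = 0.00059). The L1ME4a copy named above as fallen under Nutlin, chr9:21862189-21862614, lies just before it on the chromosome.

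Of the copies that rose at 6 h, L1MC3 at chr10:112783562-112785482 had 34.7 and 31.4 CPM against 11.7 and 11.3 (1.52, SE 0.29, edgeR adjusted p = 0.0342). L1MC5 at chr3:178670381-178671104 had 9.21 and 10.5 CPM against 2.29 and 1.95 (2.20, SE 0.42, edgeR adjusted p = 0.0343). L1MC4 at chr12:4467549-4468201 had 28.3 and 30.2 CPM against 11.7 and 11.3 (1.35, SE 0.26, edgeR adjusted p = 0.0421). These 3 calls held in only 7, 7 and 6 of 13 alternatives. The L1MC4 copy lies in the chromosome 12 stretch that rose under Nutlin, where it had 28 and 25 CPM against 7.02 and 3.86 (2.29, edgeR adjusted p = 6.8e-05). All 4 members called at 6 h were called in the same direction at 12 h and 24 h.

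By name, none of the 44 was called at 6 h, nor was any of the 1078 names tested (0.0%). At an unadjusted p under 0.05 there were 16 member names and 112 of all names, and DESeq2 called 0 member names too. Most values nonetheless lay below 0. Of the 44 names 42 had a log2 fold change below 0, with a median of -0.17, beside -0.07 over all names. In 40 names both 5-FU libraries were below both DMSO libraries and in 1 both were above, where 41.5% and 17.3% of all names were so placed. A fit on only the 4 libraries compared called 33 of the names, 1 higher and 32 lower. Of all 1063 names tested in that fit, 25 were higher and 179 lower. Among single members the 5-FU libraries were below in 1676 and above in 1005 of 6390, where 20.5% and 20.6% of all copies were so placed.

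The 12 h comparison had the most member calls of the drug comparisons. Of the 6390 members 162 rose and 432 fell, or 9.30%, while 9.71% of all copies were called, with 5.44% higher and 4.27% lower. The share called was thus near that of all copies, and the split was not: rises made up 27.3% of the members' calls and 56.1% of the calls over all copies. The median log2 fold change was -0.51 for members and -0.04 for all copies. L1MC had 55 risen and 107 fallen of 1964, L1MD 19 and 42 of 635, and L1ME 88 and 283 of 3791. Both 5-FU libraries were below both DMSO libraries in 2527 members and above in 1102, where 28.4% and 27.4% of all copies were so placed.

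Other L1 copies had like values at 12 h. In L1HS and L1PA, the youngest L1 names, 110 rose and 302 fell of 3269, with a median of -0.67. In L1MA and L1MB 100 rose and 174 fell of 3065, with a median of -0.53, and the median of L1PB was -0.89. L2, a separate and still older LINE, had 305 risen and 258 fallen of 6722 and a median of -0.13, which was 0.10 with TMM factors from all copies. No test was made between these groups of names.

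How many members rose and fell at 12 h depended on the scaling. With TMM factors from all copies, 247 rose and 306 fell, of which L1MC had 83 and 79, L1MD 30 and 30 and L1ME 134 and 197, so that falls outnumbered rises in L1ME alone. With library size alone it was 95 and 712, and with the DMSO groups of 6 h and 24 h as controls it was 332 and 504. Over all copies, 5195 rose and 1909 fell in the first of these settings. In the second it was 2056 and 4703, and in the third 5614 and 3763. The median of all copies moved from -0.04 to 0.19, -0.36 and -0.16 in these settings. The members' median lay below that of all copies by 0.36 to 0.50 on the log2 scale in each of the 14 settings with a filter on low counts. With no filter both medians were 0. Leaving out 5-FU replicate 1 or 2 gave 254 or 215 called members, and leaving out DMSO replicate 1 or 2 gave 200 or 234.

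Fewer members were detected after 12 h of 5-FU. At least 1 count fell on 28779 and 29546 members (19.8% and 20.3%) in the 5-FU libraries, against 41013 and 37058 (28.2% and 25.5%) with DMSO. The 5-FU libraries were the deeper ones outside structural RNA, with 2171090 and 2238307 counts against 1624792 and 1618055. The 100 most counted members held 26.6% and 26.4% of the member counts with 5-FU and 19.3% and 22.1% with DMSO. Member counts were thus spread over fewer copies with 5-FU, in both libraries. Neither measure was computed for other copies, so this cannot be read as a trait of the members.

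By name the fall at 12 h was broad. Of 44 names 33 fell and 1 rose, while 18.8% of all names fell and 16.9% rose. The members' median log2 fold change was -0.41 and that of all names -0.07. All but 1 of the 11 L1MC names fell, as did 2 of the 6 L1MD names and 21 of the 27 L1ME names. In 41 names both 5-FU libraries lay below both DMSO libraries and in 2 both lay above, where 41.9% and 30.9% of all names were so placed. The names not called were L1MEb, L1MD3, L1MC5a, L1MD, L1ME3A, L1ME3E, L1MD2, L1ME3, L1MEh and L1MEg1.

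Dropping the most counted copy of every name left the picture much the same. Again 33 member names fell and 1 rose, where 25.6% of all names were called (8.18% higher, 17.4% lower). Leaving out 1 library gave 18 to 25 called names with all copies and 7 to 23 without the most counted ones. Of the 34 names called with all copies, 31 kept their call and direction. All 11 L1MC names then fell, as did 4 of 6 L1MD names and 18 of 27 L1ME names, and the median was -0.44. With TMM factors from all copies, 5 member names rose and 10 fell (L1MC 0 and 2, L1MD 2 and 1, L1ME 3 and 7), and the median of the L1MD names turned from -0.15 to 0.09. Over all names 307 rose and 57 fell with that scaling, which moved their median from -0.07 to 0.17. The members' median stayed below that of all names by at least 0.28 in all 14 settings with a filter. Other L1 names had like counts in the main scaling, with 12 of 18 L1HS and L1PA names, 14 of 19 L1MA and L1MB names and 4 of 8 L1PB names lower, while of 4 L2 names 1 was higher and 0 were lower by edgeR (1 of the 4 had an unadjusted p under 0.05).

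**Figure D2:**
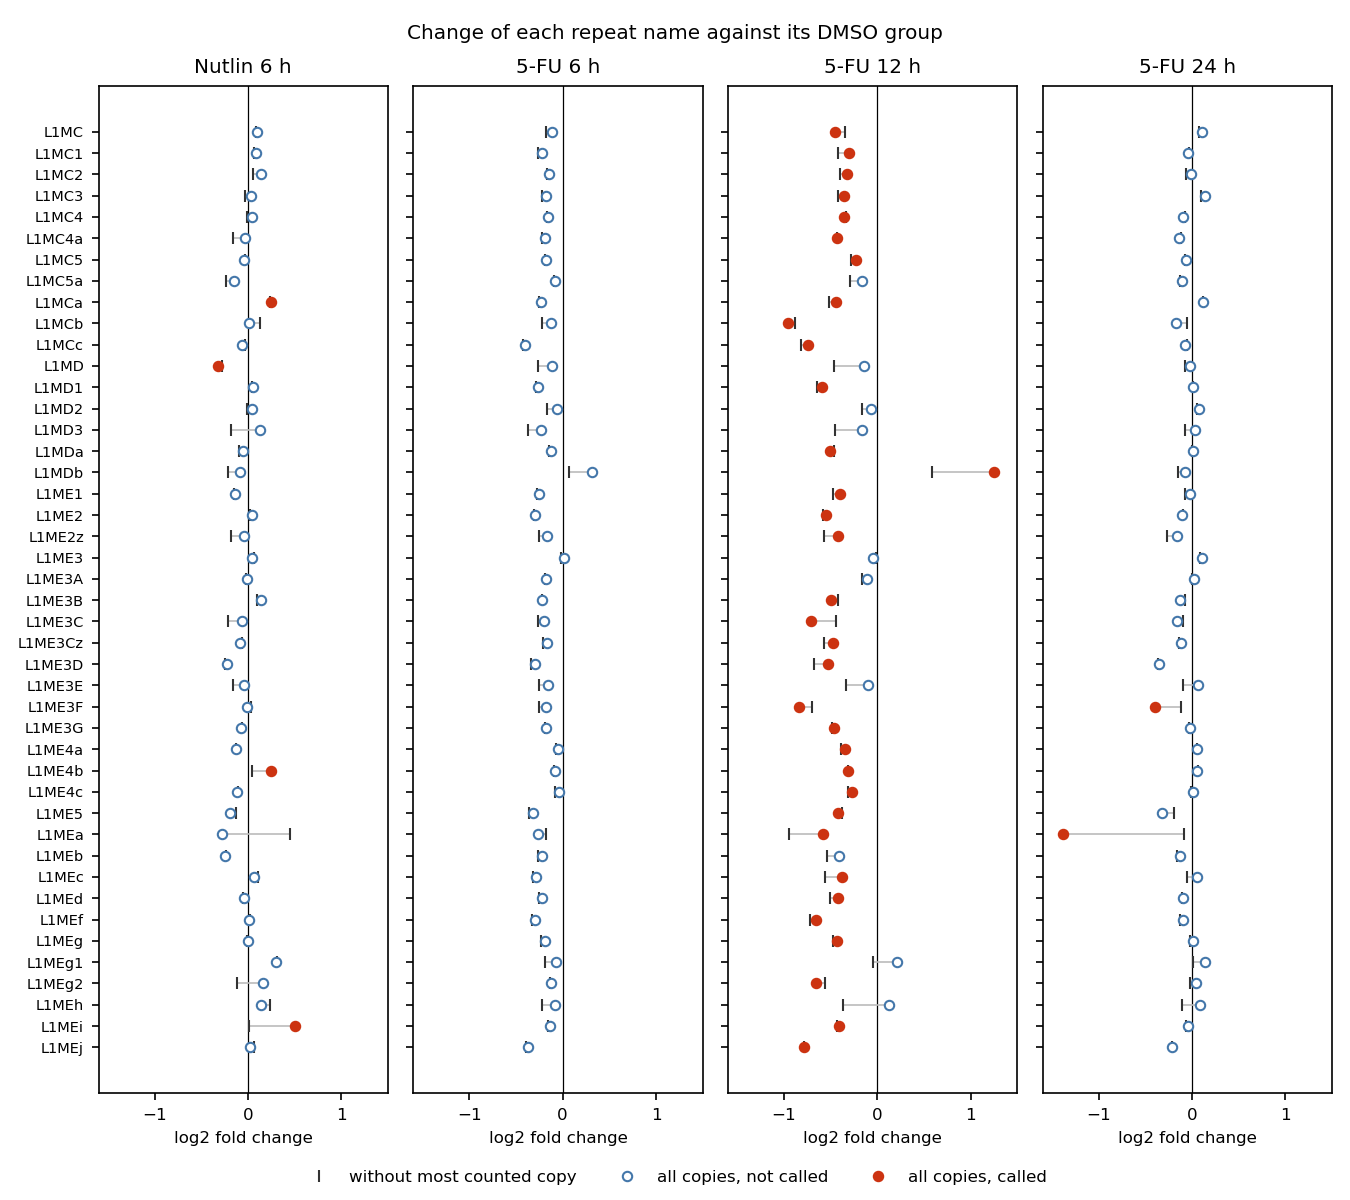
Log2 fold change (x axis) of each of the 44 names in the 4 drug comparisons, with all copies and without the most counted copy of the name. At 12 h of 5-FU 41 of the 44 names lie left of 0, with a median of -0.41, and L1MDb stands apart at 1.25, while under Nutlin they lie about 0.

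The 4 fallen names with the smallest p at 12 h were L1ME3F, L1ME3C, L1MCb and L1ME3Cz. L1ME3F had 526 and 510 CPM with 5-FU against 903 and 954 with DMSO (log2 fold change -0.84, SE 0.07, edgeR adjusted p = 8.33e-06). L1ME3C had 277 and 303 CPM against 473 and 475 (-0.71, SE 0.09, edgeR adjusted p = 9.09e-05). L1MCb had 67.0 and 71.7 CPM against 136 and 132 (-0.95, SE 0.13, edgeR adjusted p = 0.000234). L1ME3Cz had 1153 and 1150 CPM against 1601 and 1606 (-0.48, SE 0.08, edgeR adjusted p = 0.00064). These names were picked by smallest p, so the closeness of their replicates and the gap between their groups are no support.

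These 4 falls did not rest on the most counted copy. Without it the log2 fold changes were -0.70 for L1ME3F, -0.44 for L1ME3C, -0.89 for L1MCb and -0.57 for L1ME3Cz, each still called (edgeR adjusted p = 0.00163, 0.0327, 0.0032 and 0.00316). The calls of the 4 names held in all 14 alternatives. The most counted L1ME3F copy, chr1:237062340-237063941, with 29.5% of the name's counts, had 147 and 144 CPM at 12 h of 5-FU against 273 and 375 with DMSO.

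L1MDb went the other way, with 735 and 843 CPM at 12 h of 5-FU and 304 and 361 CPM with DMSO (1.25, SE 0.25, edgeR adjusted p = 0.00233). Its copy at chr17:57697284-57697464 had 579 and 664 CPM against 200 and 242 (1.49, edgeR adjusted p = 0.0023). Without that copy the name was still called, at log2 0.59 (edgeR adjusted p = 0.0163), but not with library size alone, without 5-FU 12 h replicate 2 or without DMSO 12 h replicate 1. At 24 h the same copy had 489 and 205 CPM with 5-FU and 416 and 300 with DMSO, so the groups overlapped.

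Among risen single copies, the smallest p at 12 h was that of an L1MEc copy at chr10:134465698-134466032. It had 20.6 and 26.1 CPM with 5-FU and 1.11 and 0.382 CPM with DMSO, where it had at most 3 counts in a library (edgeR adjusted p = 7.46e-06). Set against a floor of 3 counts in each DMSO library, it was at least 20.7-fold higher. It remained high at 24 h, with 20.6 and 15.0 CPM against 0.936 and 0.688 (log2 fold change 4.41, SE 0.47, edgeR adjusted p = 4.9e-06), and at 6 h it had 3.43 and 3.23 CPM against 1.04 and 0.781.

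L1ME4a at chr1:23118107-23118510 rose from 2.59 and 5.35 CPM with DMSO to 38.8 and 35.7 with 5-FU (3.22, SE 0.38, edgeR adjusted p = 1.58e-05). L1MD2 at chr7:151800723-151800994 had 19.4 and 16.6 CPM against 1.11 and 1.53 (3.74, SE 0.47, edgeR adjusted p = 3.74e-05). L1MEd at chr6:42999499-42999655 had 53.8 and 58.7 CPM against 14.5 and 9.94 (2.20, SE 0.30, edgeR adjusted p = 7.03e-05).

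The fallen copies with the smallest p at 12 h were, after the L1MD3 copy of chromosome 9, pieces of L1MC5a, L1ME3D and L1ME4b. L1MC5a at chr7:93513264-93514449 had 9.99 and 13.4 CPM with 5-FU and 43.0 and 73.4 with DMSO (-2.31, SE 0.28, edgeR adjusted p = 1.85e-05). L1ME3D at chr4:68481188-68481802 had 1.76 and 2.03 CPM against 15.2 and 27.5 (-3.47, SE 0.43, edgeR adjusted p = 2.57e-05). L1ME4b at chr5:83685780-83686595 had 0.294 and 1.45 CPM against 12.2 and 16.4 (-3.99, SE 0.51, edgeR adjusted p = 3.99e-05). The DMSO replicates of L1MC5a and L1ME3D differed from each other more than those of L1ME4b.

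**Figure D3:**
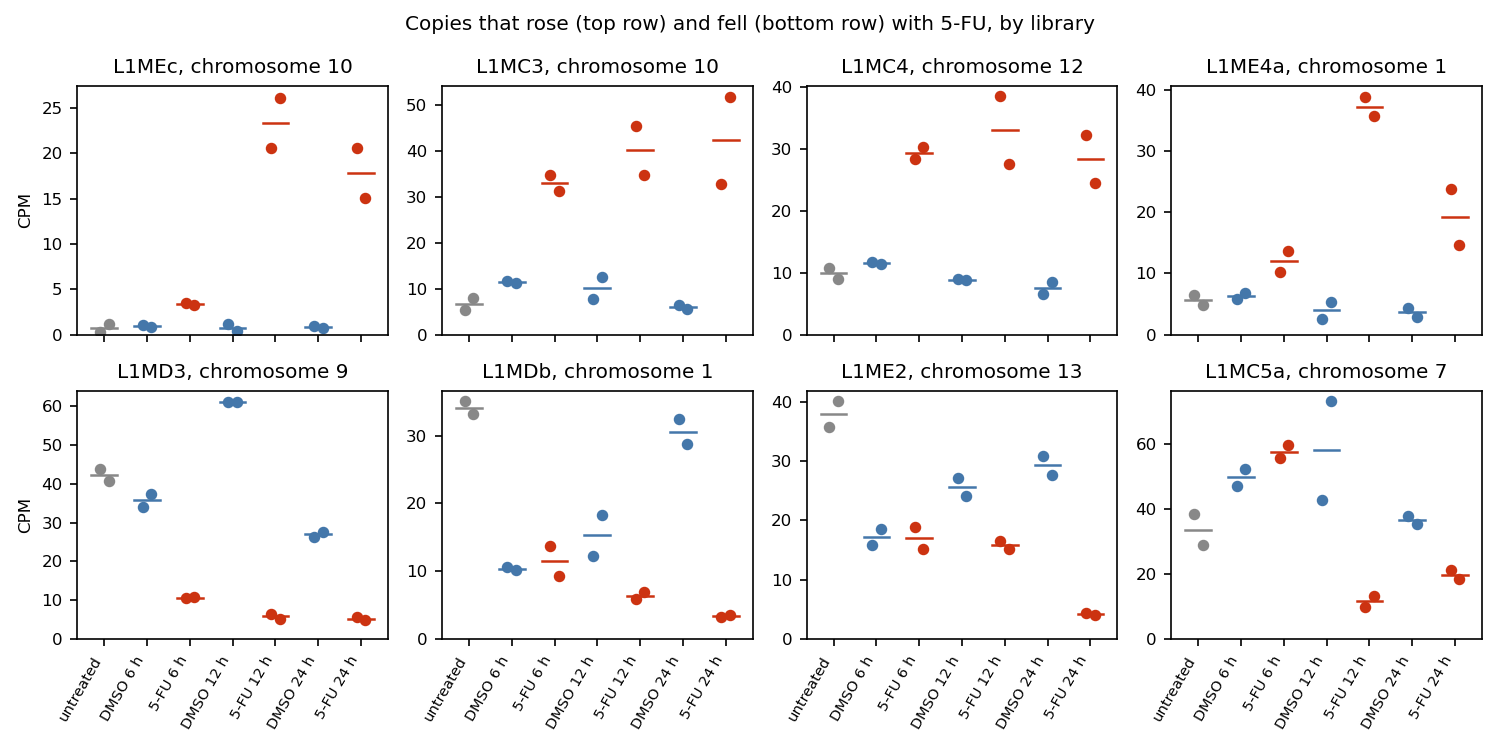
CPM (y axis) of copies that rose (top row) and fell (bottom row) with 5-FU. Each library is 1 point, with the groups of the 5-FU table along the x axis. The L1MEc copy of chromosome 10 stands at 20.6 and 26.1 CPM with 5-FU at 12 h against 1.11 and 0.382 with DMSO. The L1MD3 copy of chromosome 9 is lower with 5-FU at each of the 3 times.

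At 12 h 260 of the 594 called members, a share not computed for other copies, lay in 100 stretches with called neighbours within 50 kb. The 3 with the most members had only fallen ones. In chr4:177627878-177685520 6 of 8 members tested fell, with 7 of the 23 other repeats. In chr9:80886190-80892873 6 of 7 fell, with 2 of the 7 others. In chr6:149818529-149825724 5 of 8 members fell, with log2 fold changes of -3.49 to -1.42, and none of the 12 other repeats was called by edgeR, although their median log2 fold change was -1.62.

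The fall at 12 h went with the length of a copy, a split chosen after the values were seen. Members were cut at 363 and 761 bases into 3 classes of about equal number. Their median log2 fold changes were -0.14 in the shortest class, -0.47 in the middle and -0.95 in the longest. In the same classes 84 rose and 110 fell, 51 rose and 131 fell, and 27 rose and 191 fell. Other repeats had the same order at a higher level, with medians of 0.21, -0.23 and -0.69. Members were longer than other copies, with a median tested length of 530 bases against 300, and within each class their median was still the lower.

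Against the DMSO groups of 6 h and 24 h the members' medians in the 3 classes were -0.03, -0.51 and -1.0, and those of other copies 0.12, -0.43 and -0.89. At 6 h the members had 0.03, -0.13 and -0.36, and other copies 0.09, -0.09 and -0.30. At 24 h the classes hardly differed, with -0.02, -0.04 and -0.14 for members. Under Nutlin, with cuts at 286 and 611 bases, the values were -0.04, 0.02 and 0.01. So the order by length was present at 6 h, widest at 12 h, and near absent at 24 h and under Nutlin. Whether the length of a copy, or the transcript it lies in, sets this order was not tested. The values had an order by count level too. In 3 classes of mean CPM, the lowest first, the members' medians at 12 h were -0.91, -0.50 and -0.28. Other copies had -0.35, 0.01 and 0.16. At 6 h the members had -0.41, -0.22 and 0.03. Length and count level were not set apart.

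**Figure D4:**
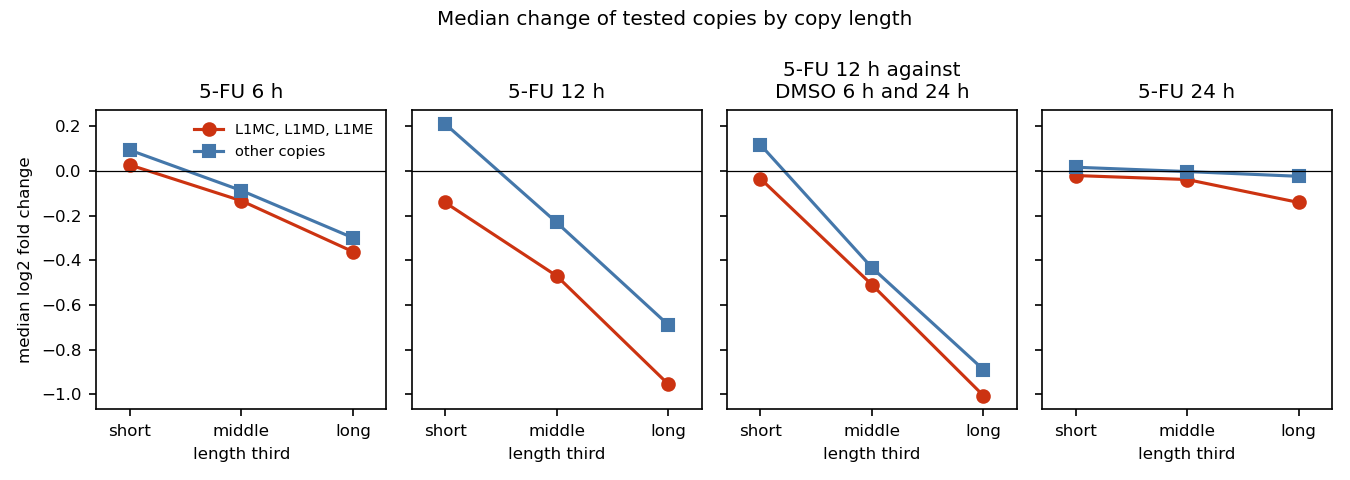
Median log2 fold change (y axis) in 3 classes of copy length (x axis) for the members and for all other repeats tested. The panels are 5-FU at 6 h, at 12 h, at 12 h against the DMSO groups of 6 h and 24 h, and at 24 h. At 12 h of 5-FU the members' medians go from -0.14 to -0.95 from the shortest to the longest class, and other repeats go from 0.21 to -0.69.

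Chromosomes differed as well at 12 h. The members' median was lowest on chromosome 4 (-0.92), 15 (-0.86) and 8 (-0.81), and highest on chromosome 22 (0.11), 19 (0.05) and 16 (-0.01). Other repeats were at -0.31 on chromosome 4, 0.39 on chromosome 19, 0.36 on chromosome 16 and 0.32 on chromosome 22. The members thus had lower medians than other repeats on each of these 4 chromosomes. Against the DMSO groups of 6 h and 24 h the order was another: the lowest member medians were -0.90 on chromosome 18, -0.80 on chromosome 15 and -0.77 on chromosome 4. Chromosome 19 was at 0.25 and chromosome 22 at -0.24.

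At 24 h the 2 libraries of 5-FU were unlike each other, and the members' level against DMSO depended on which was used. Of 6390 members 122 rose and 138 fell, or 4.07%, with 4.23% called over all copies (2.42% higher, 1.82% lower). With both libraries the median log2 fold change was -0.07 for members and 0.00 for all copies. It was 0.03 for members and -0.01 for all copies without 5-FU replicate 1, and -0.38 and -0.10 without replicate 2. L1MC had 38 risen and 45 fallen, L1MD 9 and 9, and L1ME 75 and 84. With library size alone 84 members rose and 197 fell, where 1153 of all copies rose and 1741 fell. That setting moved the median of all copies from 0.00 to -0.15. Both 5-FU libraries were below both DMSO libraries in 1622 members and above in 1233, where 23.1% and 22.3% of all copies were so placed.

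These libraries differed in how the member counts were spread. Members were 7.36% of the counts outside structural RNA in replicate 1 and 8.78% in replicate 2. At least 1 count fell on 38818 members (26.7%) in the first and 64542 (44.4%) in the second. The 100 most counted members held 23.8% and 14.6% of the member counts. Neither measure was computed for other copies. A fit without DMSO replicate 1 of this time called 93 members, and a fit without DMSO replicate 2 called 100. Without 5-FU replicate 1 it was 96 risen and 130 fallen, and without 5-FU replicate 2 it was 112 and 90.

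The risen copies with the smallest p at 24 h lay on chromosomes 10 and 12. Besides the L1MEc copy of chromosome 10, L1MC3 at chr10:112783562-112785482, also called at 6 h, rose to 32.9 and 51.9 CPM against 6.55 and 5.68 (2.80, SE 0.30, edgeR adjusted p = 5.92e-06). L1ME3 at chr10:33177500-33177768 had 95.2 and 65.7 CPM against 19.1 and 17.7 (2.12, SE 0.25, edgeR adjusted p = 1.77e-05). L1MEf at chr12:4468716-4469265 had 19.0 and 16.9 CPM against 3.0 and 2.75 (2.63, SE 0.32, edgeR adjusted p = 2.41e-05). The stretches with the most members were chr10:112782149-112786085, where all 4 members, all L1MC3, rose, chr10:134465698-134475646, again with 4 of 4, and chr12:4465569-4469265, the same 4 members as under Nutlin, which were all called at 12 h too.

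Lower at 24 h was L1ME2 at chr13:34411228-34411808, with 4.40 and 4.03 CPM against 30.9 and 27.7 (-2.80, SE 0.27, edgeR adjusted p = 1.32e-06). The L1MDb copy at chr1:197115466-197115687, which had fallen under Nutlin, had 3.24 and 3.56 CPM against 32.4 and 28.7 (-3.15, SE 0.31, edgeR adjusted p = 1.51e-06). L1MEd at chr10:58116527-58117447 had 3.47 and 5.11 CPM against 28.6 and 30.6 (-2.75, SE 0.29, edgeR adjusted p = 4.82e-06).

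By name 2 of the 44 fell at 24 h and 0 rose by edgeR, while 8.44% of all names were called (7.05% higher, 1.39% lower). L1MEa had 14.6 and 22.0 CPM against 49.6 and 47.3 (-1.38, SE 0.17, edgeR adjusted p = 0.000337). Its copy at chr17:33678938-33679292 holds 68.5% of its counts, with 9.50 and 4.03 CPM against 38.9 and 32.7 (-2.45, edgeR adjusted p = 3.4e-05). Without it the log2 fold change of L1MEa was -0.08 (edgeR adjusted p = 0.966), so the fall was that of 1 copy. L1ME3F had 551 and 613 CPM against 739 and 791 (-0.39, SE 0.07, edgeR adjusted p = 0.0036), and its most counted copy on chromosome 1 had 121 and 81.9 CPM against 251 and 235. Without that copy it was at -0.12 (edgeR adjusted p = 0.78).

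Without the most counted copies 0 member names were called at 24 h by edgeR, where 1.9% of all names were (1.52% higher, 0.381% lower). The names' median was -0.03 with all copies, beside 0.07 over all names, and -0.07 without the most counted ones. Both 5-FU libraries lay below both DMSO libraries in 5 names and above in 4, where 10.7% and 26.2% of all names were so placed. In a fit without 5-FU replicate 2 the members' median was -0.20, beside -0.02 over all names. Without the most counted copies these were -0.27 and -0.13. In a fit without 5-FU replicate 1 the members' median was 0.09, beside 0.15 over all names. Without the most counted copies these were 0.12 and 0.18.

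The difference between the 5-FU effects at 24 h and at 6 h was called in 15 members, 5 higher and 10 lower at 24 h, while 0.385% of all copies were called (0.0865% higher, 0.299% lower). With library size alone the counts were 5 and 20, and over all copies 56 and 289. L1MDb at chr1:197115466-197115687 had 13.7 and 9.32 CPM with 5-FU at 6 h against 10.6 and 10.2 with DMSO, and its difference was -3.29 on the log2 scale (SE 0.42, edgeR adjusted p = 0.000285). L1ME2 at chr13:34411228-34411808 had 18.9 and 15.2 CPM against 15.8 and 18.6 at 6 h and a difference of -2.78 (SE 0.36, edgeR adjusted p = 0.000354). Both copies were level with DMSO at 6 h and low against it at 24 h. DMSO itself was higher at 24 h than at 6 h, with 32.4 and 28.7 CPM for L1MDb and 30.9 and 27.7 for L1ME2. The differences thus hold a change in the control as well as in 5-FU. Of the names only L1MEa was called in this difference (-1.12, SE 0.24, edgeR adjusted p = 0.0383), where 1.21% of all names were (0.928% higher, 0.278% lower), and without its most counted copy the value was 0.09.

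Differences with the 12 h effect were added after the data were seen. Between 12 h and 6 h 3 members were higher at 12 h and 29 lower, where 0.651% of all copies were called (0.303% higher, 0.347% lower). Between 24 h and 12 h 16 were higher at 24 h and 7 lower, where 0.602% were (0.208% higher, 0.395% lower). With TMM factors from all copies the second split turned to 8 higher and 11 lower, where all copies had 92 and 354. By name 0 were higher and 4 lower in the first by edgeR, with 7.42% of all names called (5.47% higher, 1.95% lower), and 10 higher and 1 lower in the second, with 8.53% (4.82% higher, 3.71% lower). The names of the second were 1 higher and 2 lower with TMM factors from all copies, where 9 and 97 of all names were. The members' median difference was -0.31 in the first and 0.41 in the second, beside -0.02 and 0.05 over all copies. Both differences use the same 12 h libraries.

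Calls shared between comparisons were counted per copy. Of the 594 members called at 12 h and the 260 called at 24 h, 113 were called in both, which is 19.0% and 43.5%. Of them 45 rose in both, 66 fell in both and 2 went opposite ways. Among members tested in both tables, Nutlin called 135 and 5-FU at 24 h 159, with 33 in common (24.4% and 20.8%), of which 9 rose in both, 19 fell in both and 5 were opposite. Nutlin and 5-FU at 12 h had 44 in common (32.6% of 135 and 13.7% of the 321 called at 12 h), of which 8 rose in both, 23 fell in both and 13 were opposite. These pairs share no DMSO libraries. Over all members tested in both, Pearson's r of the log2 fold changes was 0.31, 0.20 and 0.09 for the pairs in this order. Shared calls were not counted over all copies, so the overlap cannot be read as a trait of the members.

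Members moved with the repeats around them. For each member, the median log2 fold change of other repeats tested within 10 kb was set beside its own. Across members with such a neighbour, Pearson's r was 0.67 under Nutlin (1392 members) and 0.25, 0.45 and 0.54 at 6, 12 and 24 h of 5-FU (5405 members each), and Spearman's rho was 0.59, 0.32, 0.50 and 0.52. Members and neighbours share their libraries, and often may share a transcript, so these are descriptions with no test.

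Called members mostly had the sign of their neighbours. The neighbours' median was above 0 for 55 of 57 risen members under Nutlin, 132 of 145 at 12 h and 112 of 117 at 24 h. It was below 0 for 49 of 53 fallen members under Nutlin, 362 of 403 at 12 h and 128 of 129 at 24 h. The 4 members called at 6 h had the sign of their neighbours too. Over all members with a neighbour, called or not, the neighbours' values had a median of 0.01 under Nutlin, -0.20 at 12 h and -0.05 at 24 h. How often other called copies have the sign of their neighbours was not computed.

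**Figure D5:**
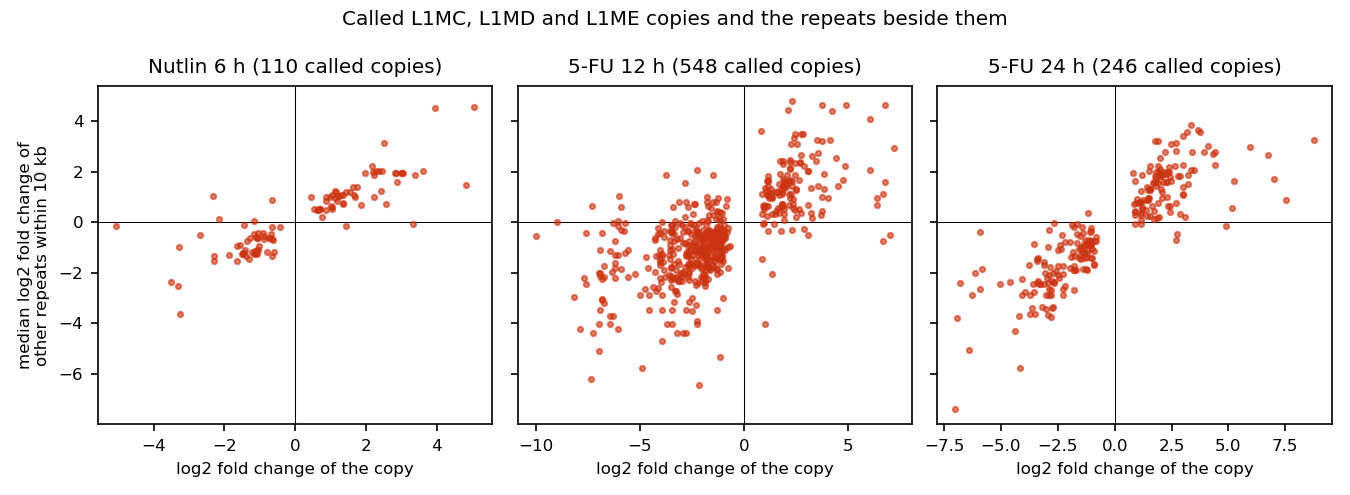
Log2 fold change of each called member (x axis) and the median of the other repeats tested within 10 kb (y axis). There is 1 panel each for Nutlin, 5-FU at 12 h and 5-FU at 24 h, with 110, 548 and 246 points. Most points lie in the quadrants where both values have the same sign.

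DMSO groups of the 5-FU table, taken as the mean of 6, 12 and 24 h, were compared with untreated cells, which differ from them in the medium change too. The vehicle and the medium change cannot be told apart here. Of 6390 members 46 were higher with DMSO and 30 lower, where 0.643% and 1.02% of all copies were (1.66% in all). With library size alone the counts were 45 and 81, and over all copies 389 and 1614. The members' median was 0.21 and that of all copies 0.01. These DMSO libraries are also the controls of the 5-FU comparisons. A fit without untreated replicate 1 called 12 members, a fit without replicate 2 called 11, and fits without 1 of the DMSO libraries called 38 to 55.

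By name 17 of 44 were higher with DMSO and 1 lower, where 14.4% of all names were called (11.2% higher, 3.15% lower), with a median of 0.25 beside 0.14 over all names. With TMM factors from all copies 1 was higher and 2 were lower, and with library size alone 0 and 1. Over all names these settings gave 18 higher and 109 lower, and 10 and 59. L1MC had the smallest p of the higher names (0.42, edgeR adjusted p = 0.00509), before L1ME4b (0.31, edgeR adjusted p = 0.00541), L1ME4a (0.25, edgeR adjusted p = 0.00966) and L1MD3 (0.32, edgeR adjusted p = 0.0152). L1MEa was the lower one (-0.82, edgeR adjusted p = 0.00454). Without the most counted copies 5 names were higher and 0 lower by edgeR, where 5.71% of all names were called. None of these calls was left with library size alone, or without untreated replicate 1, untreated replicate 2 or DMSO 24 h replicate 2.

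An L1MC4 copy of 81 bases at chr14:80667817-80667897 had 30.8 and 36.8 CPM in untreated cells and 1.15 to 5.85 CPM in the 6 DMSO libraries, with a log2 difference of -3.52 (SE 0.28, edgeR adjusted p = 9.03e-07). L1ME3A at chr16:86523423-86523868 had 136 and 205 CPM against 33.9 to 57.9 with DMSO (-1.91, edgeR adjusted p = 2.12e-05). L1MC5a at chr7:93514537-93514874 had 13.5 and 13.2 CPM in untreated cells and 39.2 to 65.0 with DMSO (1.89, edgeR adjusted p = 0.000145). L1MEg at chr7:100771155-100771285 had 0.751 and 1.49 CPM against 3.06 to 13.9 (2.75, edgeR adjusted p = 0.00156).

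At some of these copies 5-FU at 12 h stood near the untreated level. L1ME3A at chr16:86523423-86523868 had 157 and 149 CPM with 5-FU at 12 h, and 40 and 48.6 with DMSO of that time. L1MC5a at chr7:93514537-93514874 had 14.1 and 12.8 CPM against 47.4 and 65.0. In both, the 12 h 5-FU libraries were close to the untreated ones and apart from every DMSO library of the table.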

How the data were processed

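The authors deposited 2 tables of raw counts, with a row for each repeat copy, made from stranded total RNA libraries, per the labels. The submitters' processing notes name hg19, Trimmomatic 0.32, cutadapt 1.10, Bowtie2, edgeR and DESeq2 without their roles. The counting program, the repeat annotation, the strand setting and the handling of reads that match several copies are not given in the sources used here. Reads from near-identical copies may thus be split between them, and no copy was placed in a gene or on a strand.

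Members and lists were chosen with earlier results of these data known. Counts were also summed per repeat name, with and without the most counted copy. Each whole table was fitted once with edgeR 4.0.16 in R 4.3.3 (limma 3.58.1), with a mean per group, after filterByExpr (minimum count 10). Scaling used TMM factors of the filtered copies for copies and names alike. Against a DMSO group at or under 3 counts per library, a fold is a lower bound computed at 3 counts. DESeq2 1.42.0 was an alternative, and the others were library-size scaling, RLE factors, TMM factors from all copies, no filter, a replicate block, an adjusted p under 0.01, fits on the libraries compared, fits without structural RNA, other DMSO groups (12 h) and leaving out each library. Tables were read with the R package data.table (version 1.17.8). Python 3.11.15, numpy 2.4.6, pandas 2.3.3 and matplotlib 3.10.9 made the summaries. The fits were tested on simulated data, with trended and with tagwise dispersion. Under Nutlin, copy fits recovered 23% and 27% of changes of log2 1, and 62% and 63% of those of log2 2. At 6, 12 and 24 h of the other drug they recovered 1% to 2%, and 8% to 25%. Name fits recovered 77% to 95%, and 97% to 100%. Of the copy calls, 0% to 4.55% were false with trended dispersion. With tagwise dispersion 14.3% (Nutlin), 6.67%, 9.09% and 23.5% (6, 12 and 24 h) were. A copy without a call may thus have changed.

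Named copies are the 4 risen and 4 fallen with the smallest p in each drug comparison, among those called, with a log2 fold change of at least 1 in size and no overlap of the libraries. For the other comparisons they are 2 and 2. Named names are those called, in full the 4 and 4 with the smallest p. Stretches are the 3 with the most called members. Total counts per library limit the precision: at 1 to 5 counts in a library a CPM rests on counting error above all.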

Additional observations from a re-analysis of the deposited data

Results flagged for a closer look

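In these members the effect of 5-FU differed between times by a test of the difference itself (edgeR, adjusted over all copies or names, n = 2 per group). Values are log2 differences, and the comparisons with 12 h were added after the data were seen. Between 24 h and 6 h, the L1MDb copy at chr1:197115466-197115687 had -3.29 and the L1ME2 copy at chr13:34411228-34411808 had -2.78, and L1MEa as a name had -1.12 (adjusted p = 0.000285, 0.000354 and 0.0383).

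Copies with libraries at 0 gave large fitted values that are no bound on a fold. L1MC3 at chr2:112017057-112017755 had a fitted difference of 14.12 between 24 h and 6 h (adjusted p = 0.004), with 0 and 0 CPM with 5-FU and 4.37 and 3.52 with DMSO at 6 h, and 1.85 and 5.27 with 5-FU and 0 and 0 with DMSO at 24 h. L1ME3B at chr9:42247948-42249533 had a fitted 12.96 (adjusted p = 0.0285), was called in 8 of 17 alternatives, and has 4 like copies of the same name, so its position is uncertain.

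Between 12 h and 6 h, the L1MC5a copies at chr7:93514537-93514874 and chr7:93513264-93514449 had -2.51 and -2.53 (adjusted p = 0.0013 and 0.00152). They lie side by side. L1MEc at chr1:148936741-148938004 had 3.47 and L1ME4a at chr15:83489679-83490706 a fitted 7.67 (adjusted p = 0.0269 and 0.0292). Between 24 h and 12 h, L1MC5a at chr2:192561111-192561540 had 2.47 and L1MC5a at chr6:33375207-33375447 had -3.90 (adjusted p = 0.0189 and 0.0191). L1ME2 at chr13:34411228-34411808 had -2.10 (adjusted p = 0.00725). L1ME3G at chr9:67325310-67326241 had a fitted 8.30 (adjusted p = 0.0167), and a like copy makes its position uncertain.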

How the results depend on the processing

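Counts of called members are given here where they moved by over 1.5 times. Calls over all copies and names are not listed beside them, so these counts cannot be read as a trait of the members. At an adjusted p under 0.01, member copies called were 52 (Nutlin), 1, 208 and 101 (5-FU at 6, 12 and 24 h), 6 (24 h minus 6 h) and 22 (DMSO against untreated), and names were 2 (Nutlin), 0 (24 h minus 6 h) and 4 (DMSO). With no filter on low counts, copies were 18, 253 and 147 at 6, 12 and 24 h and 29 for 24 h minus 6 h. With library size alone, copies were 25 for 24 h minus 6 h, 126 for DMSO, 108 for 12 h minus 6 h and 36 for 24 h minus 12 h, and names were 18 (Nutlin), 0, 1 and, for 24 h minus 12 h, 2. Nutlin then had 9 names without the most counted copy. With TMM factors from all copies, copies were 8 at 6 h, and names 15 at 12 h, 3 for DMSO, 2 for 12 h minus 6 h and 3 for 24 h minus 12 h (1 higher, 2 lower). On only the libraries compared, copies were 8 at 6 h, 121 at 24 h, 6 for 24 h minus 6 h and 165 for DMSO, and names 33, 0, 0 and 36. DESeq2 called 66 copies under Nutlin, 9 at 6 h and 47 for 24 h minus 6 h, and names 7 (Nutlin), 8 (24 h), 2 (24 h minus 6 h) and 8 (DMSO). RLE factors gave 0 names for 24 h minus 6 h. Without structural RNA names were 4 at 24 h and 0 for 24 h minus 6 h. The cause of these moves was not tested. Without the most counted copy, the 5 names of DMSO became 0 with library size alone and 2 with RLE factors.

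Leaving out 1 library gave 130 to 176 copies under Nutlin, 1 to 3 at 6 h, 200 to 254 at 12 h, 93 to 226 at 24 h, 6 to 46 for 24 h minus 6 h (46 without 5-FU 24 h replicate 1) and 11 to 55 for DMSO. Names were 1 to 8 under Nutlin (1 without either Nutlin library, 8 and 7 without DMSO replicate 1 and 2), 0 to 0 at 6 h, 18 to 25 at 12 h, 2 to 18 at 24 h, 0 to 19 for 24 h minus 6 h (19 without 5-FU 24 h replicate 1) and 0 to 13 for DMSO. Without the most counted copy they were 0 to 6, 0 to 0, 7 to 23 and 0 to 20 for the 4 drug comparisons in this order, and 0 to 3 for DMSO. In such a fit the lone library of a group is assumed to vary like the other groups.

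Replicate numbers do not tie samples across groups in the labels, and deviations of same-numbered samples correlated at -0.003, -0.003, -0.016 and 0.139. With the replicate number as a block, copies called were 115, 3, 537, 225, 12 and 56 for the 4 drug comparisons, 24 h minus 6 h and DMSO. Names were 2, 0, 33, 2, 0 and 15, of which the paired values for Nutlin (2) and 24 h minus 6 h (0) moved by over 1.5 times. For single named copies and names, 706 alternative values kept their side of the threshold, 74 no longer passed it, and 0 changed direction.

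Depth limits these results: 6390 and 1697 members passed the filter, and the rest were too shallow for a test.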

Other observations

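Some members swap counts with a like copy from 1 library to the next, an observation made after the values were seen. Like copies here have the same name, the same positions in the repeat per the row names (whose meaning the files do not state), and lengths within 5 bases. Such a copy exists for 9823 members in the 5-FU experiment and 6479 in that of Nutlin. Among the 437 and 281 tested members with at least 100 counts in a library, 18 gaps of at least 10-fold between the replicates of a group were found, at 10 copies.

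The clearest pair is L1MC5a at chr5:70248222-70248820 and chr5:69372802-69373400, both of 599 bases. With DMSO at 12 h the first had 20 counts in replicate 1 and 797 in replicate 2, and the second had 708 and 14. With the DMSO of Nutlin the first had 45 and 1073 counts and the second 906 and 19. Over the 5-FU table the first copy ranged from 8.29 to 314 CPM of all counts, while the sum of the pair stayed between 188 and 321. In the Nutlin table the sum stayed between 85.7 and 118. The sum varied less than either copy, and the sum by name holds both. The second copy had 21 and 8 counts with Nutlin and was called lower than DMSO (log2 fold change -5.07, SE 1.24, edgeR adjusted p = 0.0237), a call that rests on the 906 counts of DMSO replicate 1.

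L1MDa had a like pair on chromosome 2, chr2:112101490-112101806 and chr2:87906120-87906436. With 5-FU at 24 h the first had 8 and 383 counts and the second 390 and 8. With 5-FU at 6 h the first had 249 and 10 and the second 1 and 304. Over the 5-FU table the first copy ranged from 0.585 to 75.6 CPM of all counts and the pair from 31.8 to 79.1. An L1MC4 copy at chr1:148003192-148003630, in a set of 13 like copies, ranged from 0.619 to 207, and its set from 231 to 442. Other sums were not steady. In the Nutlin table the L1MDa pair ranged from 0 to 15.5. An L1MDa copy with gaps at chr2:87887609-87888004 is in a set of 2 with 99.7% of the counts in 1 copy. That set ranged from 0 to 36.7 over the 5-FU table, so no swap is seen there. The set of 7 with L1ME1 at chr16:22503202-22503722 ranged from 6.12 to 48.2.

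Of the called members, those with a like copy were 13 of 137 under Nutlin (9.49%), 0 of 4 at 6 h, 25 of 594 at 12 h (4.21%) and 13 of 260 at 24 h (5%). Among the copies named by rule, those with a like copy were L1ME3B at chr9:42247948-42249533, in a set of 5, and L1ME3G at chr9:67325310-67326241, in a set of 2. At 12 h of 5-FU the called copies with like copies included L1ME1 at chr16:21457823-21458343, a copy with such a gap, with a fitted log2 fold change of -8.97 (edgeR adjusted p = 0.0207). How the counts came to be placed was not tested.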
